A study of Mus musculus with 6 samples.

Results

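Mt1 and Mt2 encode the 2 metallothioneins that are made in most mouse tissues. They were followed in primary mouse embryonic fibroblasts, with and without a treatment with H2O2, and with and without an intact Wrn helicase. The members were all probes that the array names Mt1 or Mt2. They came to 3 of 41174 probes, for 2 of 29742 gene names, and each had a spot on all 6 arrays. A bright and a dim probe measured Mt1, and a single probe measured Mt2.

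Metallothioneins are small proteins rich in cysteine that hold zinc and copper, trap cadmium and react with oxidants. Their genes are switched on by the metal-responsive transcription factor MTF1, which binds short metal response elements in their promoters when free zinc rises. Oxidants can release zinc from proteins, and glucocorticoids and other stresses also act on these promoters. Cultured fibroblasts are known to make both proteins.

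The cells were grown from minced embryos of day 15 by the sample labels. Wild type cells were compared with Wrn Δhel/Δhel cells, labelled WS after Werner syndrome, in which Wrn carries an in-frame deletion within its helicase domain. Treated cells had received 0.5 mM H2O2 for 1 h and then 24 h in fresh medium. Each of 3 comparisons had 2 two-colour arrays, described as biological replicates. Replicates 1 and 2 of each genotype set treated against untreated cells, and replicates 3 and 4 set the genotypes against each other without treatment. On the 4 treatment arrays the treated RNA carried Cy5 and the untreated RNA Cy3, and no dyes were exchanged, so that a dye preference of a probe stays in each ratio. All 8 fibroblast markers looked up, such as Col1a1, Vim and Pdgfra, were well above background in all 12 dye channels, and 0 of 4 hepatocyte, 0 of 4 endothelial, 0 of 4 epithelial, 1 of 5 macrophage and 3 of 4 skeletal muscle markers were. At least 6 of the 12 channels held such a signal for 5 of 5 macrophage and 4 of 4 skeletal muscle markers. The same held for 3 of 4 epithelial, 2 of 4 endothelial and 1 of 4 hepatocyte markers. Each marker had it in at least 1 channel. The deletion was not checked by the 4 Wrn probes, since their place relative to it is not known. In untreated cells 1 of them was lower in the mutant (log2 ratio −0.90, limma adjusted p = 0.0111), where 9.76% of all probes were called lower. It was the dimmest of the 4, with a mean log2 intensity of 3.85. The other 3 lay between −0.0012 and 0.38. The share of spots that the scanner software marked as outliers ran from 0.400% to 8.81% on 5 arrays and was 22.6% on wild type treatment replicate 2. The bright Mt1 probe and the Mt2 probe were among the marked spots of that array, for a non-uniform Cy3 signal, and on no other array. Their main value for the wild type response therefore rests on 1 array, and the value with the marked spots kept is given beside it.

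In the RefSeq annotation of the mouse genome build GRCm38.p6 the 4 metallothionein genes lie in a row on chromosome 8. Mt2 covers chr8:94172618-94173567 and Mt1 covers chr8:94178883-94180327, with 5315 bases between them, both on the + strand. Mt4 begins at 94137204 and Mt3 at 94152607. The sequence before the start of Mt2 and a short stretch at Mt1 are shown because MTF1 acts through metal response elements in metallothionein promoters. The Mt1 stretch was chosen around the only match to such an element in its window, and binding at either place was not tested. Matches to the core of the metal response element, TGCACNC or TGCGCNC on either strand, are in capitals. The first is the 250 bases before the start of Mt2 (chr8:94172368-94172617, + strand), and the second is a stretch of 30 bases shortly before the start that the RefSeq promoter table gives to Mt1 (chr8:94179054-94179083, + strand), shown short because a longer annotated transcript begins upstream.
Mt2: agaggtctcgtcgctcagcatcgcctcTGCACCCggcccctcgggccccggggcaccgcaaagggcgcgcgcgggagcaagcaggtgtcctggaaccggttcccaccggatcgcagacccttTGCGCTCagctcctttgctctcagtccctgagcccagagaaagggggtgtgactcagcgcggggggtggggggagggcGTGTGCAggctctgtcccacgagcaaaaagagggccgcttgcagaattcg
Mt1: gcggtcccgctgTGCACACtggcgctccag
The window of Mt2 held 3 matches and that of Mt1 held 1 in its 250 bases. The Mt1 window ends before a start at 94179089, which lies inside the span given above for Mt1. Most of that window is thus annotated as part of the gene, and it is not comparable to that of Mt2. Of 32851 RefSeq windows of this length, 21.4% held at least 1 match and 1.26% held 3 or more. The core of the antioxidant response element, TGACNNNGC, matched once in the window of Mt2 and not in that of Mt1, and 10.2% of windows held it. The GC box GGGCGG matched at 2 places in the window of Mt1 and not in that of Mt2. It was held at least once by 32.7% of windows, and 16.7% held 2 or more. The E-box CACGTG matched in neither window. These are matches of letters and say nothing of binding.

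After H2O2 Mt2 rose in wild type cells, and Mt1 had a value above 0 there that did not pass the test. In mutant cells both genes had values slightly below 0 that did not pass. Values are log2 ratios of Cy5 over Cy3 after loess. The Mt2 ratio was 1.79 on wild type replicate 1 and 2.19 on replicate 2, the marked spot. In mutant cells it was −0.55 and −0.28. The arrays of the genotypes did not overlap, but how often this holds over all probes was not counted. The bright Mt1 probe gave 0.97 and 1.37, the second again marked, in wild type cells and −0.77 and −0.57 in mutant cells. The dim Mt1 probe moved little, with 0.42 and 0.07 in wild type cells and 0.34 and 0.11 in mutant cells. Its Cy5 signal was not well above background on mutant replicate 2 and on untreated replicate 4, and all of its ratios lay between 0.07 and 0.42 on the 6 arrays. In these RNA pools a change in the number of cells that make a transcript and a change in RNA per cell cannot be told apart.

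**Figure D1:**
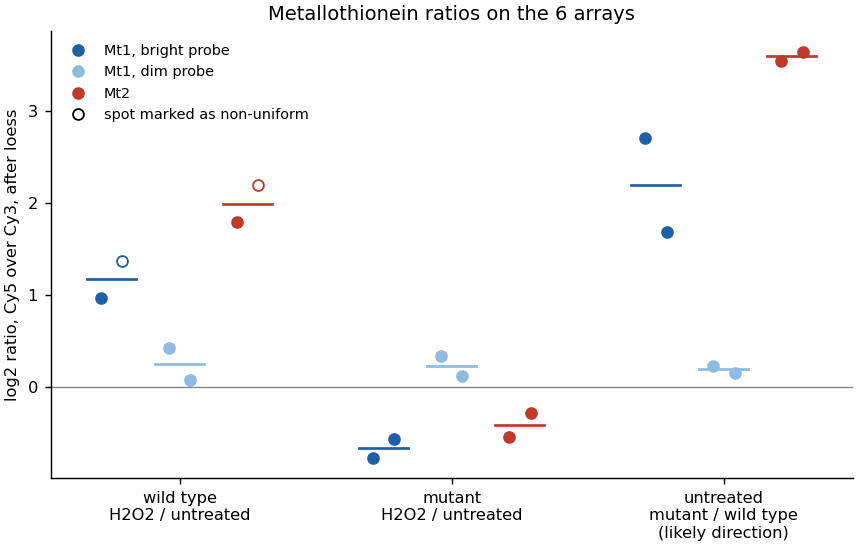
Log2 ratio of Cy5 over Cy3 after loess for the 3 probes of Mt1 and Mt2 on the 6 arrays, with points for arrays, hollow points for spots marked as non-uniform and bars for the mean of 2 arrays. Mt2 and the bright Mt1 probe lie above 0 on both wild type treatment arrays and below 0 on both mutant ones, and the untreated mutant over wild type values, in the likely direction, reach 3.64 for Mt2.

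In limma's fit over the 6 arrays Mt2 rose by 1.79 in wild type cells, a 3.47-fold change (95% interval 1.21 to 2.38; adjusted p = 0.0474). With the marked spot kept it rose by 1.99, or 3.98-fold (adjusted p = 0.0144). For comparison, 0.422% of the 40303 probes tested were called higher in wild type cells, and 1.17% of 41174 with marked spots kept. A higher fitted ratio than that of Mt2 was seen for 18 probes, and for 12 with marked spots kept. Mt1 had an estimate of 0.97 (95% interval 0.06 to 1.87) that did not pass the test (adjusted p = 0.225), nor did it with the marked spot kept (1.17; adjusted p = 0.0611). The methods' rule of an adjusted p under 0.005, a fold over 2 and a mean log2 intensity over 6 was met by neither gene here, nor by any other probe in wild type cells (0%). The Mt2 call stands close to the threshold. It was lost when either mutant treatment array was left out of the pooled spread (adjusted p = 0.172 for each) or when wild type replicate 2, which holds no unmarked Mt2 spot, was left out (adjusted p = 0.257), with the estimate at 1.79 throughout. With marked spots kept it was lost without either mutant treatment array (adjusted p = 0.130 for each), without wild type replicate 1 (2.19; adjusted p = 0.440) and without wild type replicate 2 (1.79; adjusted p = 0.245).

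In mutant cells the estimates were −0.67 for Mt1 (95% interval −1.31 to −0.03; adjusted p = 0.399) and −0.42 for Mt2 (95% interval −0.83 to −0.00065; adjusted p = 0.414). Neither passed the test, and limma called 0 of 41052 probes (0%) in this comparison, against 4945 (12%) at an unadjusted p under 0.05. The sign of these 2 values depended on the correction of the dyes. Before any normalization the array medians of the log2 ratio lay between −3.18 and −2.42, and the loess curve lowered both bright probes relative to that median on every array. The shift was −1.37 for Mt1 and −1.35 for Mt2 on mutant replicate 1, and between −0.55 and −0.28 on the other 3 treatment arrays. With median centring in place of loess the mutant estimates were 0.24 for Mt1 and 0.49 for Mt2, and the wild type ones 1.52 and 2.34. The difference between the genotypes kept its sign, at −1.28 for Mt1 and −1.85 for Mt2.

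The difference of the 2 responses, mutant minus wild type, was −1.64 for Mt1 (95% interval −2.74 to −0.53) and −2.21 for Mt2 (95% interval −2.93 to −1.49). A dye preference of a probe cancels in this difference. In the fit over the 6 arrays neither passed after adjustment (adjusted p = 0.708 and 0.354), and 0 of 40267 probes (0%) did, against 2412 (5.99%) at an unadjusted p under 0.05. When the 4 treatment arrays were fitted alone the estimates were the same and both passed (adjusted p = 0.0126 for Mt1 and 0.00376 for Mt2), and leaving out only untreated replicate 3 or only untreated replicate 4 gave the same adjusted p. With marked spots kept, the 4 arrays gave −1.84 for Mt1 (adjusted p = 0.0192) and −2.41 for Mt2 (adjusted p = 0.0085). The call on the difference thus rests on whether the spread of the untreated arrays is pooled. How many of all probes were called in the fits of 4 arrays was not counted. Among 17747 probes with a mean log2 intensity over 6 and a value on the 4 treatment arrays, 9 had a more negative difference than Mt2 and 38 a more negative one than Mt1.

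**Figure D2:**
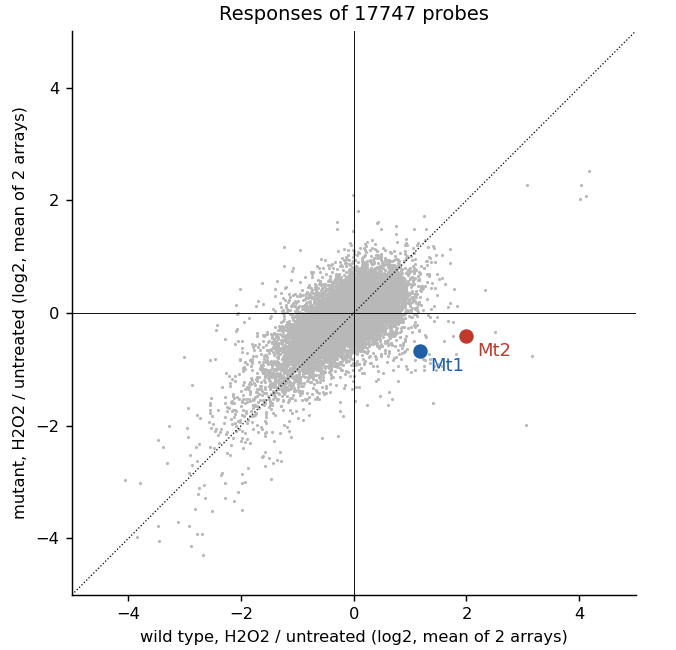
Log2 ratio of treated over untreated cells in wild type (horizontal) and mutant cells (vertical), each the mean of 2 arrays with marked spots kept, for 17747 probes with a mean log2 intensity over 6; the dotted line marks equal responses. Mt1 and Mt2 lie at the lower right edge of the cloud, at 1.17 and −0.67 for Mt1 and 1.99 and −0.42 for Mt2.

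The question whether untreated mutant cells already differed was addressed by replicates 3 and 4. The labels place wild type RNA in Cy5 on these arrays, whereas the study's own table runs Cy5 over Cy3 as mutant over wild type. That direction is used below as the likely one, because the Cy3 channels of the treatment arrays, where the labels give each genotype, point the same way: over 4426 probes called with a fold over 2, the 2 measures correlated with r = 0.879 across probes and had the same sign for 94.4%. With the labels' direction every value of these 2 arrays changes sign.

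Both metallothioneins were higher in untreated mutant cells, Mt2 by 12.1-fold and Mt1 by 4.57-fold. Mt2 gave log2 ratios of 3.54 and 3.64, which differed by little between the arrays. The bright Mt1 probe gave 2.70 and 1.68, a wide spread, and the dim one 0.22 and 0.15. The fitted differences were 3.59 for Mt2 (95% interval 3.18 to 4.01; limma adjusted p = 0.000423), and 2.19 for Mt1 (95% interval 1.55 to 2.83; limma adjusted p = 0.00480). Turned to the labels' direction they read −3.59 and −2.19. On both arrays the likely mutant RNA carried Cy5, so a dye preference of a probe stays in these differences. They exceeded those within Cy3 of the treatment arrays, marked spots kept, by 0.90 for Mt2 and 0.68 for Mt1. The reason was not tested. The dim probe of Mt1 did not pass the test (0.19, adjusted p = 0.462). For this comparison the methods ask for an adjusted p under 0.005 and a mean log2 intensity over 6, with no limit on the fold. Both genes met this, Mt1 narrowly: its adjusted p was 0.00507 with marked spots at weight 0 in the loess, 0.00627 with median centring, 0.0217 with normexp background, 0.0243 with its own arrays only, and 0.0265 without either mutant treatment array or 0.00938 without either wild type one. That of Mt2 stood above 0.005 without either mutant treatment array (0.00715) and with the log ratios of Feature Extraction (0.0128). Here 10.2% of 41099 probes were called higher and 2.01% met the methods' rule in either direction, so that a call alone sets neither gene apart. By size, 46 probes had a higher ratio than Mt2 and 272 a higher one than Mt1. Fibroblast markers had values off 0 as well: 7 of 8 lay above 0 in this comparison (−0.54 to 2.03, Pdgfra the highest), 7 of 8 below 0 in treated wild type cells (−1.62 to 0.94, Col3a1 the lowest), and 4 of 8 below 0 in treated mutant cells (−0.88 to 0.28), with marked spots kept. Their mean log2 level was 11.10 to 11.66 in the 4 untreated wild type channels, 12.16 to 12.50 in the 4 untreated mutant ones, 10.77 to 10.81 in treated wild type and 12.06 to 12.40 in treated mutant cells. The macrophage, endothelial, epithelial, skeletal muscle and hepatocyte markers lay between −1.43 (Krt18) and 0.94 (Afp) in untreated mutant over wild type cells, and Acta1, a muscle actin, was at −1.12 in treated wild type and −2.20 in treated mutant cells. Their part in the values of Mt1 and Mt2 was not tested.

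The levels of each dye channel were also scaled over all arrays. Of these, the Cy3 channels of the treatment arrays hold other RNA, while the channels of replicates 3 and 4 hold the same spots as the ratios above. The values are log2 intensities of 1 probe and are not compared between genes. In Cy3, untreated wild type cells had Mt2 at 9.80 and 9.15 on the treatment arrays, the second from the marked spot, and untreated mutant cells at 12.44 and 11.88. On replicates 3 and 4 the Cy3 channel, likely wild type, stood at 9.36 and 9.15, and the Cy5 channel, likely mutant, at 12.91 and 12.80. The 4 wild type and 4 mutant values did not overlap, but how often this holds over all probes was not counted. The mutant values of replicates 3 and 4 set Cy5 against Cy3. For Mt1 the untreated wild type values were 11.24, 11.54 (marked), 11.03 and 11.01 and the mutant ones 12.95, 12.85, 13.73 and 12.69, again apart.

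Within Cy3 of the 4 treatment arrays both genotypes carried the same dye. The levels were taken after loess, however, so its correction of the dyes enters them. Untreated mutant over untreated wild type cells gave 2.31 for Mt2 (95% interval 1.27 to 3.35) and 1.45 for Mt1 (95% interval 0.38 to 2.52). Neither passed limma's test. These values rest on 1 wild type array, and the median over all probes was −0.11. With marked spots kept Mt2 was 2.69 higher, or 6.45-fold, and passed (limma adjusted p = 0.00806), and Mt1 was at 1.51 (adjusted p = 0.116). With those spots kept, Mt2 missed the threshold without mutant replicate 1 (2.41; adjusted p = 0.0764), and Mt1 passed without wild type replicate 1 (1.36; adjusted p = 0.0171) or 2 (1.66; adjusted p = 0.0333). The share of probes called higher was 0.199% without and 0.481% with the marked spots.

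Treated wild type cells had Mt2 at 11.60 and 11.34 in Cy5 and treated mutant cells at 11.89 and 11.60. For Mt1 the values were 12.20 and 12.91 in wild type and 12.18 and 12.28 in mutant cells, which overlapped. These levels include the marked spots of wild type replicate 2, and over them the difference within Cy5, treated mutant over treated wild type, was 0.28 for Mt2 (95% interval −0.65 to 1.21; limma adjusted p = 0.871) and −0.32 for Mt1 (95% interval −1.30 to 0.65; adjusted p = 0.856). Without the marked spots, on 1 wild type array, it was 0.10 for Mt2 (95% interval −1.01 to 1.22; limma adjusted p = 0.974) and −0.19 for Mt1 (95% interval −1.35 to 0.98; adjusted p = 0.951). The latter intervals are wide: a level in the mutant 2-fold below that of the wild type lies within both, and for Mt2 a level 2-fold above it as well. Within this comparison 0.370% of 40267 probes were called in either direction.

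**Figure D3:**
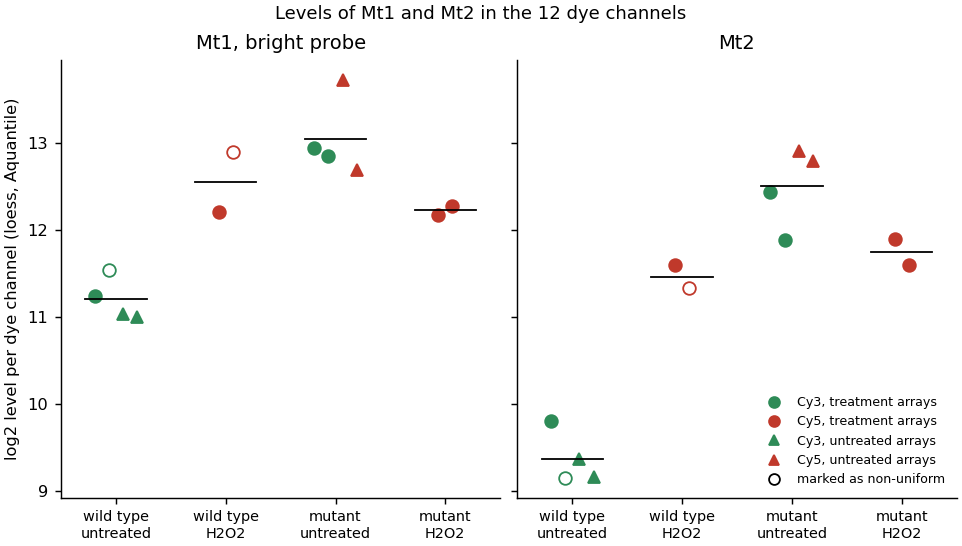
Log2 level of the bright Mt1 probe (left) and of Mt2 (right) in each of the 12 dye channels by genotype and treatment, with colours for dyes, triangles for replicates 3 and 4 placed by the likely direction, hollow points for marked spots and lines for means. By mean level untreated wild type cells are lowest, at 9.15 to 9.80 for Mt2, and untreated mutant cells highest, while the treated channels of both genotypes lie between 11.34 and 11.89 for Mt2. The groups differ in dye, which enters this order, and neither response in mutant cells passed the test.

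By mean level over the channels the order for Mt2 was untreated wild type, treated wild type, treated mutant and untreated mutant. Treated and untreated mutant cells overlapped in this order, and treated wild type and treated mutant cells met at 11.60. For Mt1 the order was untreated wild type, treated mutant, treated wild type and untreated mutant, with treated wild type cells overlapping both of their neighbours. Treated levels were all in Cy5 and untreated wild type ones all in Cy3, while untreated mutant ones came from both dyes. A dye preference of a probe thus enters both orders. Neither response in mutant cells passed the test. With median centring in place of loess their estimates lay above 0, at 0.24 for Mt1 and 0.49 for Mt2. The ratio of Mt2 exceeded that of the bright Mt1 probe on every array: by 0.83 and 0.82 in wild type cells under treatment, 0.22 and 0.29 in mutant cells, and 0.84 and 1.96 in untreated mutant over wild type cells. The dim Mt1 probe stood above Mt2 on both mutant treatment arrays, at 0.34 and 0.11 against −0.55 and −0.28.

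Of the other members of the family, Mt3, known mainly from brain, gave −0.78 and −0.74 in treated wild type cells and −0.77 and −1.03 in treated mutant cells, below 0 on all 4 arrays without passing the test (limma adjusted p = 0.0649 and 0.199). In untreated mutant over wild type cells Mt3 was at −0.0036 and 0.020. Mt4, known from stratified epithelia, was not well above background in Cy5 on any array with either of its probes, so its ratios have no firm level. Of the genes next to the cluster, Herpud1, an endoplasmic reticulum stress protein, was higher in untreated mutant cells (log2 ratio 1.52, limma adjusted p = 0.00539), as was Nudt21, a pre-mRNA processing factor (0.83, adjusted p = 0.0288). Slc12a3, a sodium chloride transporter, was lower (−1.95, adjusted p = 0.00854), and Ogfod1, Bbs2 and Nup93 did not pass. In that comparison 10.2% of all probes were called higher and 9.76% lower. None of the 6 neighbours passed for either treatment response, where 0.836% of all probes were called in wild type and 0% in mutant cells.

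Genes of metal handling were read from 8 lists, the metallothionein family included, of 76 genes of which 71 had a probe. Mtf1, the activator of the metallothionein genes, gave log2 ratios of 0.07 and 0.01 in treated wild type cells, 0.04 and −0.19 in treated mutant cells and 0.94 and 0.74 in untreated mutant over wild type cells. The last comparison passed (0.84, limma adjusted p = 0.0138). Slc30a1, the zinc exporter that MTF1 also controls, was at 0.39 and 0.38 in treated wild type cells, 0.20 and 0.37 in treated mutant cells and 0.33 and 0.72 in untreated mutant cells, and passed in no comparison. After treatment limma called 0 of the 64 listed genes outside the family that had a value in wild type cells and 0 of 67 in mutant cells. Over all probes it called 0.836% of 40303 in wild type cells and 0% of 41052 in mutant cells, so these counts do not set the lists apart. With marked spots kept, Gclc (0.91, adjusted p = 0.0413) was called higher and Stat3 (−0.91, adjusted p = 0.0494) and Fkbp5 (−1.26, adjusted p = 0.0484) lower in wild type cells, where 1.17% of all probes were called higher and 1.22% lower.

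In untreated mutant over wild type cells the lists gave the following counts, against 10.2% of all probes called higher and 9.76% lower. Of 8 reported MTF1 targets other than Mt1 and Mt2, 1 was called higher and 1 lower, with a median log2 ratio of 0.35 beside 0.01 over all probes. Selenow, a small selenoprotein, was the higher one at 2.13 and 1.70 (limma 1.91, adjusted p = 0.00281). Gclc, the catalytic subunit of glutathione synthesis, was the lower one at −0.55 and −0.62 (−0.58, adjusted p = 0.0383). Of 9 zinc exporters measured, 0 were higher and 1, Slc30a9, was lower (−1.13), with a median of 0.02. Of 13 zinc importers, 0 were higher and 1, Slc39a8, was lower (−1.94; arrays −0.99 and −2.89), with a median of −0.06.

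Of 11 copper genes measured, 4 were called higher and 0 lower, with a median of 0.39. They included the copper transporters Slc31a1 (1.02) and Slc31a2 (1.06) and the metalloreductase Steap3 (1.28). Of 13 iron genes, 4 were higher and 1 lower, with a median of 0.15. Slc40a1, which encodes the iron exporter ferroportin, gave 3.97 on both arrays (adjusted p = 0.000272), and within Cy3 of the treatment arrays it was 3.10 higher (limma adjusted p = 0.00577). Cp, the ferroxidase ceruloplasmin, was at 2.46 and 2.15. Aco1, an iron-sensing protein, and Hmox2, a haem oxygenase, were higher by 1.35 and 1.36, and the ferritin light chain Ftl1 was lower by an estimate of −1.03 that rests on 1 array, since its other spot was marked. With marked spots kept, Ftl1 was at −0.62 and no longer passed (adjusted p = 0.0817), and the ferritin heavy chain Fth1 was called higher (1.30, adjusted p = 0.00516; 1.03 and adjusted p = 0.0748 without them), so that 5 iron genes were higher and 0 lower. Keeping them also brought Plekhf1 among the MTF1 targets past the threshold (0.65, limma adjusted p = 0.0335). The zinc transporters Slc30a3 (1.36, adjusted p = 0.0464) and Slc39a7 (0.93, adjusted p = 0.0350) passed as well, where 11.2% of all probes were called higher and 11.2% lower. The estimates of these genes were the same without the marked spots. Slc30a3 was dim, with a mean log2 intensity of 3.85 and arrays at 0.44 and 2.28.

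Of 8 transcription factors known at metallothionein promoters, 3 were higher and 0 lower: Mtf1, the oxidant-responsive factor Nfe2l2 (1.34) and Sp1 (1.20), with a median of 0.41. Of 8 glucocorticoid-induced genes measured, 2 were higher, Tsc22d3 at 1.07 and Errfi1 at 0.78, and 1, Sgk1, was lower at −0.73, with a median of 0.63. The receptor gene Nr3c1 was at −0.44 and did not pass. Within these lists the values of the metallothioneins were exceeded only by that of Slc40a1 for Mt2 and by those of Slc40a1 and Cp for Mt1.

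**Figure D4:**
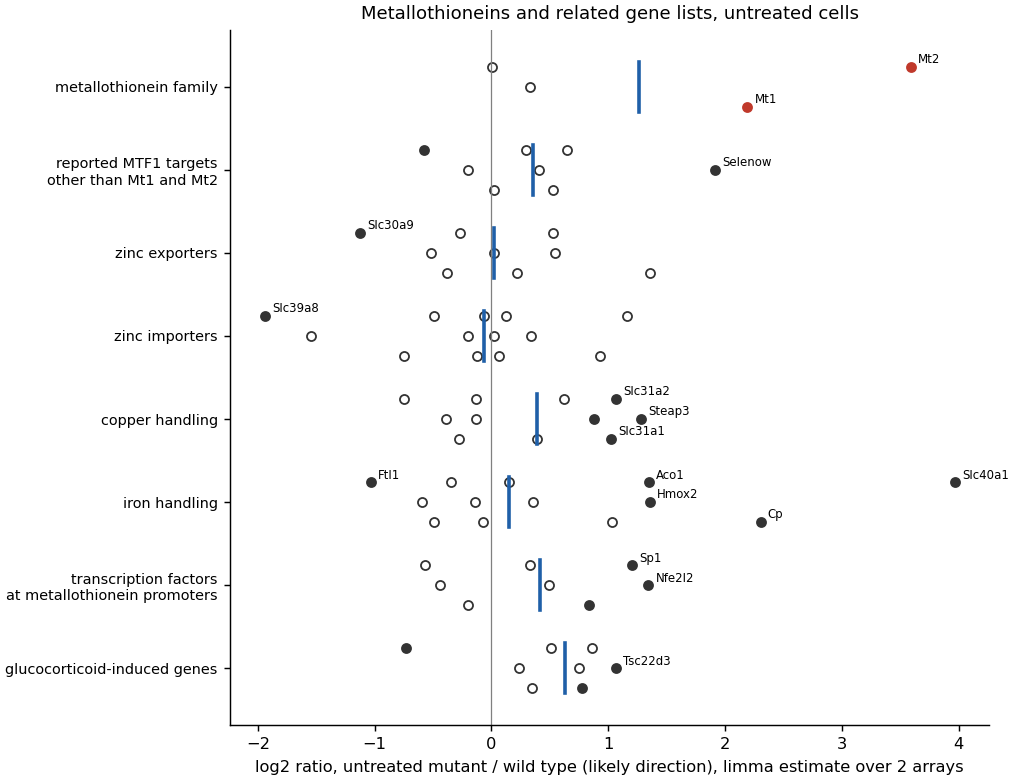
Log2 ratio of untreated mutant over untreated wild type cells in the likely direction (limma estimate over replicates 3 and 4) for each measured gene of 8 lists, filled where the adjusted p was under 0.05, with blue bars for list medians and names for called genes past 2-fold. Mt2 at 3.59 and Mt1 at 2.19 stand to the right, with Slc40a1 at 3.97 and Cp at 2.31 the nearest of the other lists.

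The genes whose 6 ratios were most like those of a metallothionein were found by the root mean square difference over the 6 arrays among 8763 gene symbols with a mean log2 intensity over 6 and a value on every array. For Mt1 they were Nol12 (0.25), Slc7a4 (0.26), Nol4l (0.32), Zfp235 (0.34) and Dnajc27 (0.35), where the median over all candidates was 1.53. For Mt2 they were Aldh1l2 (0.51), Mmp11 (0.54), Chchd10 (0.56), Niban1 (0.61) and L3hypdh (0.75), where the median was 2.37. Between the 2 metallothioneins the difference was 1.00, which placed Mt1 at rank 26 for Mt2 and Mt2 at rank 627 for Mt1. Aldh1l2, a mitochondrial folate enzyme, showed the pattern of Mt2 with 2.65 and 2.36 in treated wild type cells, −0.60 and −0.07 in treated mutant cells and 3.19 and 2.86 in untreated mutant over wild type cells.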

How the data were processed

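Labelled RNA of mouse embryonic fibroblasts was hybridized to 6 two-colour Agilent 60-mer arrays, 2 per comparison. The authors deposited, for each spot, the mean and local background intensity in Cy3 and Cy5, outlier flags (no unit) and the log10 ratio of Feature Extraction. The authors' series table holds loess log2 ratios, with medians from 0.0016 to 0.018. The sources differ on the software version and on total against cytoplasmic RNA.

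Background was subtracted and ratios were normalized by loess with limma 3.58.1 in R 4.3.3, control spots at weight 0. Spots marked as outliers in either dye were left out of the fit, saturated spots were kept, and spots of a probe averaged. One model with 1 coefficient per comparison was fitted over the arrays by lmFit and eBayes, and two-sided p-values were adjusted by Benjamini-Hochberg over all probes with a value. A call is an adjusted p under 0.05. Channel levels came from Aquantile scaling. The fits were tested on simulated data. The number of arrays limits the precision.

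Genes named were the members, the family, Mtf1, Slc30a1, Wrn, 3 neighbours on each side, listed genes called with a fold over 2, and the 5 genes most like each member; Gclc, Errfi1, Sgk1, Stat3, Fkbp5, Nr3c1, Fth1, Plekhf1, Slc39a7 and the marker genes with values were named after their values were seen. Members and lists were chosen with earlier results of these data known. The brightest probe stands for a listed gene with several. Of 16369 RefSeq accessions on the array, 15402 were named through RefSeq tables of GRCm38.p6, which also gave the promoter sequences. Plots used matplotlib 3.10.9 and pandas 2.3.3 under Python 3.11.15.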

Additional observations from a re-analysis of the deposited data

Results flagged for a closer look

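After loess the log2 ratios of Mt1 and Mt2 under H2O2 lay above 0 on both wild type arrays, the second with marked spots, and below 0 on both mutant arrays. Of these responses only that of Mt2 in wild type cells passed the test, and with median centring in place of loess the mutant estimates turned to 0.24 for Mt1 and 0.49 for Mt2. The difference, mutant minus wild type, was −1.64 for Mt1 and −2.21 for Mt2, with 1 unmarked wild type array behind each. For both genes it did not pass limma's test over the 6 arrays and passed when the 4 treatment arrays were fitted alone. How many of all probes were called in that fit was not counted.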

How the results depend on the processing

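Both metallothioneins were higher in untreated mutant cells under every setting run on replicates 3 and 4, at 1.68 to 2.77 for Mt1 and 3.51 to 4.08 for Mt2, and Mt1 missed the threshold only with the log ratios of Feature Extraction (2.15, adjusted p = 0.0535). The wild type response of Mt2 missed it with those ratios (1.75, adjusted p = 0.0513), with marked spots at weight 0 in the loess (1.75, adjusted p = 0.0521; chosen after seeing the data) and with median centring (2.34, adjusted p = 0.121). Median centring turned the mutant response to 0.24 for Mt1 and 0.49 for Mt2. The cause was not tested.

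With each comparison's own arrays the estimate of −0.67 for Mt1 in mutant cells passed limma's test (adjusted p = 0.00817, and 0.0060 with marked spots kept). Those of −1.64 for Mt1 and −2.21 for Mt2 in the difference of responses passed too. With marked spots kept, so did 1.17 for Mt1 in wild type cells (adjusted p = 0.00751) and −1.84 and −2.41 in the difference. Fewer arrays then set the spread, and the share of all probes called in these fits was not counted. Within Cy3, Mt2 passed with dim probes left out (2.31, adjusted p = 0.00986), marked spots kept (2.69), quantile normalization over channels (2.45, adjusted p = 0.0440) and each dye normalized on its own (2.43, adjusted p = 0.0498; chosen after seeing the data), as well as without wild type replicate 2 (2.31, adjusted p = 0.000125).

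The replicate numbers are shared by the treatment arrays but only as numbers, with correlations of same-numbered deviations of −0.037 for ratios, 0.18 for Cy3 and 0.082 for Cy5 over 2 pairs. With the replicate block and marked spots kept, Mt1 (1.51, adjusted p = 0.0214) and Mt2 (2.69, adjusted p = 5.29e-07) passed within Cy3, and the dim Mt1 probe turned to 0.012, as it did with marked spots kept alone (0.012). With the replicate block alone, Mt2 within Cy5 turned to −0.064, with no residual degrees of freedom and so no test; the block changed no other call.

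Leaving out each array in turn, with marked spots left out or kept (the latter chosen after seeing the data), gave 0.97 to 1.37 for Mt1 and 1.79 to 2.19 for Mt2 in wild type cells, −0.77 to −0.57 and −0.55 to −0.28 in mutant cells, and −2.04 to −1.54 and −2.60 to −2.08 for the difference. Within Cy3 the values were 1.22 to 1.69 and 2.28 to 3.02, and within Cy5, with changes of sign, −0.67 to 0.15 and −0.064 to 0.43. The dim probe of Mt1 ran from −0.20 to 0.15 for the difference, −0.65 to 0.084 within Cy3 and −0.50 to 0.14 within Cy5. Mt1 in mutant cells passed without untreated replicate 3 or 4 (−0.67, adjusted p = 0.0157 for each), as did Mt1 in wild type cells (0.97, adjusted p = 0.00632). A lone array left in a group is assumed to vary like the others.

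A block for slide or scan was not run, since no slide held more than 1 array. The 4 treatment arrays were extracted at one time and replicates 3 and 4 at other times, which cannot be told apart from the comparison. The dim Mt1 probe lies near background, which limits its ratios.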

Other observations

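A further probe, which the array names TC982071 and describes as a partial match to metallothionein-II, stood outside the probes named Mt1 or Mt2. Its log2 ratios were 0.51 and 1.04 in treated wild type cells, −1.63 and −0.77 in treated mutant cells, and 2.15 and 2.60 in untreated mutant over wild type cells in the likely direction. The last comparison passed limma's test (2.38, adjusted p = 0.00235), as did untreated mutant over wild type cells within Cy3 (2.71, adjusted p = 0.00897), and the responses to H2O2 did not (0.78, adjusted p = 0.154; −1.20, adjusted p = 0.230). Which transcript this probe reads was not tested.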
